A study of Mus musculus with 10 samples.

Results

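CD8 T cells were taken from single-cell libraries of CD45+ cells sorted from SW1 melanoma tumors of mice. A barcode was counted as a CD8 T cell when it held at least 500 genes, at most 10% UMIs (unique molecular identifiers, 1 per captured RNA molecule) of mitochondrial genes, at least 2 UMIs of Cd3e, Cd3d and Cd3g together, at least 1 UMI of Cd8a or Cd8b1, no UMI of Cd4 or Foxp3 and at most 2 UMIs of C1qa, C1qb and C1qc together. This rule chose 622 of the 31156 barcodes that met the limits on genes and mitochondrial UMIs (quality barcodes), out of 41936 barcodes in all. Female mice of the C3H/HeJ strain, which carries an inactive Tlr4, aged 4 to 6 weeks were injected with SW1, a mouse melanoma line, and from 10 days later by the labels (a longer time by the study's methods) drank control water or water with L-fuc (L-fucose, a dietary sugar). The dose is labelled as 100 mM in the treatment text and as 100 nM in the extraction text. The 5 gene expression libraries were a pretreatment pool (control day 0), a control and an L-fuc pool taken after 7 days, and another such pair after 21 days, each with a T cell receptor library of the same cells. Each library was a pool of mice (3 at day 0 and 6 in each other group by the extraction text, 5 in each treatment arm by the treatment text), the labels name no engineered allele, and no mouse can be told apart. There was thus 1 library per condition, which allows no test of one condition against another, since the cells of a pool are no replicates of it.

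CD8 T cells recognise peptides on MHC class I molecules through a T cell receptor of an alpha and a beta chain, with CD8 as coreceptor and the CD3 chains as signalling partners. A naive cell circulates through lymphoid organs under genes such as Ccr7, Klf2 and Il7r. Once it meets its antigen it divides, so that many cells share 1 receptor (a clonotype), and it gains granzymes, perforin, chemokines such as Ccl5 and, when stimulation lasts as in tumors, inhibitory receptors such as PD-1 (Pdcd1), CTLA-4 and LAG-3.

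The libraries gave very different numbers of these cells. There were 99 CD8 T cells with 693362 UMIs at control day 0, 230 with 1036880 UMIs at control day 7 and 272 with 1695140 UMIs at L-fuc day 7. Control day 21 gave only 13 cells with 56694 UMIs, and L-fuc day 21 only 8 with 37723 UMIs, of which 1 cell held 31.2%. The values of day 21 therefore describe a handful of cells. The median depth per CD8 T cell was 4953, 2966.5, 4155, 4607 and 3220.5 UMIs in this order of libraries (control day 0, then control before L-fuc at each later day), which is used throughout.

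The genes of the rule were strong at day 0 and weaker at control day 7. The median cell held 20 UMIs of the CD3 genes at control day 0, 5 at control day 7, 13 at L-fuc day 7, 31 at control day 21 and 15.5 at L-fuc day 21. RNA of both CD8 chains was seen in 82 of 99, 90 of 230, 163 of 272, 8 of 13 and 5 of 8 cells. This made 348 of the 622 cells (55.9%), with Cd8a alone in 159 and Cd8b1 alone in 115. At the edges of the rule, 67 cells held exactly 2 CD3 UMIs, 156 held a single CD8 UMI, and 143 barcodes with 1 CD3 UMI stayed just outside. The limit on C1q kept out 515 barcodes that met all the other limits, 264 of them at control day 7 and 208 at L-fuc day 7.

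The T cell label held on genes that the rule did not use, although RNA of other cells was present in amounts that differed between libraries. The 20 T cell genes outside the rule (Trac, Trbc1, Trbc2, Thy1, Lck, Cd5 and others) summed to 4695, 2665, 3744, 7320 and 6362 counts per 1000000 UMIs of the CD8 T cells (CPM), against 373, 208 and 494 CPM in the barcodes outside the T cell gate in the first 3 libraries. Receptor sequences of both chains were found for 379 of the 622 cells (60.9%), for 0 of 505 NK cells, which allows a share of up to 0.594% (3 counts of the total; the upper Clopper-Pearson limit is 0.728%), and for 6 of 4153 macrophages (0.144%). Markers of SW1 tumor cells, led by Sparc at day 7, summed to 1.44, 1774 and 938 CPM in CD8 T cells of the first 3 libraries, and Pmel, Dct and Mlana of that list were at 0 in the first 2 of these. Red cell markers, led by Hbb-bs, summed to 0, 379 and 3824 CPM, and macrophage markers, led by Lyz2 or Apoe, to 348, 723 and 324 CPM. The macrophage list includes C1qa, C1qb and C1qc, which stood at 82.9, 72.3 and 55.0 CPM at control day 7. The rule limits these genes to 2 UMIs together, so macrophage sums in T cells, here and below, are bounded by the choice of cells. Control day 7 thus held the most tumor and macrophage RNA and L-fuc day 7 the most red cell RNA. Of the CD8 T cells, 35.4%, 93.0%, 91.5%, 61.5% and 75.0% held more than 2 UMIs of the markers of other cell classes, and the part of this RNA in the comparisons below was not tested. Mitochondrial genes took a median of 0.178%, 1.96%, 1.61%, 1.57% and 1.62% of the UMIs of a CD8 T cell. No CD8 T cell barcode was shared between any pair of libraries.

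CD8 T cells made up a larger part of the quality barcodes at L-fuc day 7 than at control day 7, but not a larger part of the T cells. They were 6.73% of quality barcodes at control day 0 (95% Clopper-Pearson interval 5.51 to 8.14) and 0.826% at control day 21 (0.441 to 1.41). At day 7 the control share was 1.29% (1.13 to 1.46) against 3.01% with L-fuc (2.67 to 3.38), and 21 days of L-fuc gave 0.677% (0.293 to 1.33). All intervals cover counting error only. Quality barcodes were not limited to immune cells. Outside the T cell gate, markers of SW1 tumor cells summed to 4262 CPM at control day 7 and 3180 at L-fuc day 7. The C1q limit kept out 264 and 208 barcodes in the same libraries. The part of both in the shares was not tested. The share at L-fuc day 7 was 2.34 times that at control day 7 (1.96 to 2.80), and at day 21 the ratio was 0.819 (0.294 to 2.13), an interval that holds both a higher and a lower share. Of the T cell barcodes, 26.5%, 30.5%, 27.4%, 26.5% and 23.5% were CD8 T cells, and the ratio of L-fuc to control at day 7 was 0.901 (0.753 to 1.08). Against conventional CD4 T cells (same limits, with Cd4 and without CD8 genes or Foxp3) the order turned: CD8 T cells were 52.4%, 81.3%, 56.9%, 44.8% and 61.5% of the sum of both, with 230 CD8 against 53 CD4 cells at control day 7 and 272 against 206 at L-fuc day 7. This gave a ratio of 0.700 (0.585 to 0.838) at day 7. Both classes need a caught UMI of Cd4 or of a CD8 gene. T cell barcodes without any UMI of Cd4, Foxp3 or the CD8 genes numbered 374 at control day 7 and 385 at L-fuc day 7. They were counted in neither class, and their part in this order was not tested.

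**Figure D1:**
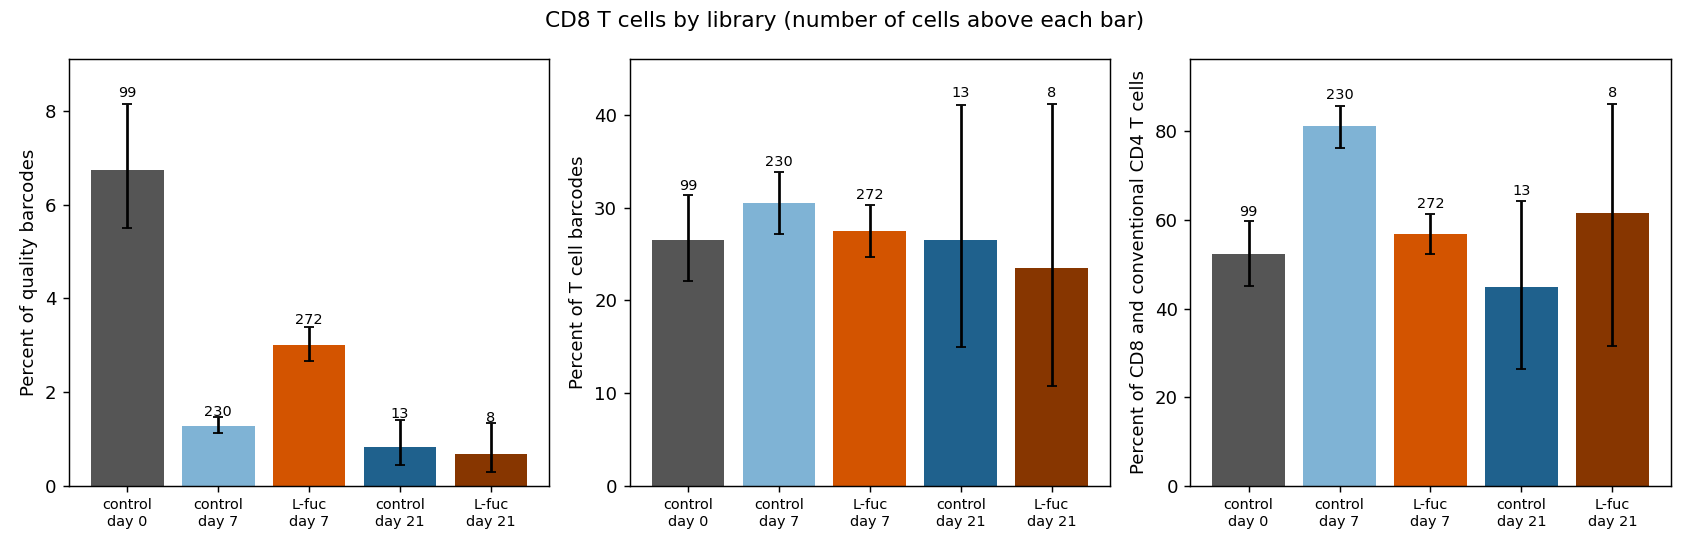
Share of CD8 T cells in each library (y axes, percent) among quality barcodes (left), T cell barcodes (middle) and the sum of CD8 and conventional CD4 T cells (right). Bars are 1 library each, error bars are 95% Clopper-Pearson intervals and the numbers are CD8 T cells. Among quality barcodes L-fuc day 7 (3.01%) lay above control day 7 (1.29%), while on the right control day 7 stood highest at 81.3%.

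Among themselves the CD8 T cells of each library mixed naive and effector genes. The list of naive and central memory genes summed to 2896, 1400, 2128, 1870 and 1882 CPM, and the list of inhibitory receptors and exhaustion genes to 1663, 906, 1169, 3422 and 1829 CPM. With each cell thinned to 1000 UMIs, naive genes alone were seen in 32.3% of cells at control day 0, 15.7% at control day 7 and 12.6% at L-fuc day 7. Effector genes alone were seen in 33.3%, 27.5% and 37.0% of the cells of the same libraries, and in 10 of 13 cells at control day 21. Among the libraries of day 0 and day 7 the naive class was thus largest at day 0. Its intervals at day 0 (23.3 to 42.5%) and control day 7 (11.3 to 21.1%) did not overlap. At day 21 it held 0 of 13 control cells and 2 of 8 L-fuc cells (3.19 to 65.1%), too few to rank. The lymph node homing receptor Ccr7 was seen in 18.2% of thinned cells at day 0 and in 1.75% and 1.85% at control and L-fuc day 7, against 0.815%, 0.419% and 0.415% of macrophages in the same libraries, whose median depth was 6421, 5274 and 4282 UMIs. Without thinning the shares in CD8 T cells were 43.4%, 4.78% and 6.25%. At day 0 Ccr7 was also seen in 23.3% of thinned B cells and 20.5% of thinned conventional CD4 T cells, which use this receptor as well. B cell markers in the CD8 T cells summed to 927 CPM at day 0 and 146 at control day 7, and their part in the difference was not tested.

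Cytotoxic genes were present in every library, and the granzymes differed in the libraries where a UMI of them was seen. Gzmk, a granzyme of memory-like CD8 T cells, stood at 294 CPM at control day 0, 217 at control day 7, 307 at L-fuc day 7, 970.1 at control day 21 and 318 at L-fuc day 21. Gzmb, the granzyme that cuts caspases in target cells, stood at 177, 84.9, 227 and 265 CPM in the first 4 libraries and had no UMI at L-fuc day 21. Gzma, another granzyme, stood at 24.5, 157 and 632 CPM and had no UMI in either library of day 21, where 0 counts allow up to 52.9 and 79.5 CPM. Its level at control day 0 lay below both limits, so these zeros do not show absence. Gzmk was thus found everywhere, whereas Gzma was uneven between cells as well: its 1071 UMIs at L-fuc day 7 came from 52 of 272 cells. Gzmd, Gzme, Gzmf and Gzmg, which activated killer cells can make, had no UMI in any CD8 T cell. Ccl5, a chemokine that draws T cells and myeloid cells, took 7746, 4208, 7812, 37570.1 and 3102 CPM and was the leading gene of the cytokine and chemokine list in every library.

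Inhibitory receptors were found in every library. Pdcd1 stood at 384, 130.2, 201, 617 and 239 CPM, and was found in 46, 75, 113, 9 and 4 cells. Ctla4 stood at 156, 57.9, 93.8, 599.7 and 212 CPM. Tox, a nuclear factor of chronically stimulated CD8 T cells, was at 98.1, 101, 119, 299.9 and 371 CPM. Control day 21 was the highest of the 5 libraries for Pdcd1 and Ctla4 and L-fuc day 21 for Tox, both from few cells.

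**Figure D2:**
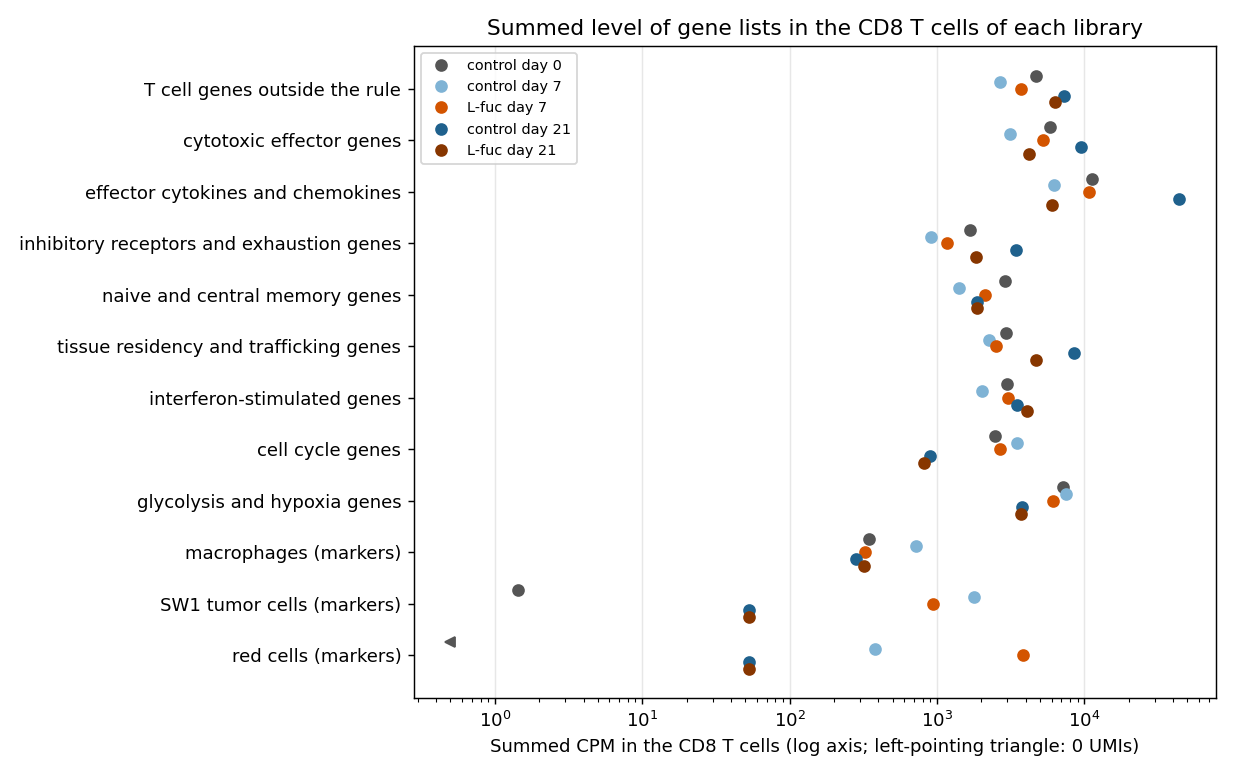
Summed level (x axis, CPM, log scale) of 9 gene lists and 3 lists of other cells' markers in the CD8 T cells of each library (1 point per library). T cell genes, cytotoxic genes and cytokines were lower at control day 7 (2665, 3151 and 6216 CPM) than at L-fuc day 7 (3744, 5223 and 10785 CPM), while tumor and red cell markers spanned from 1.44 or 0 CPM at day 0 to 1774 and 3824 CPM at day 7.

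Against conventional CD4 T cells of the same libraries, CD8 T cells carried more of the cytotoxic genes Gzmb and Ctsw and of Ccl5, and less of CD40 ligand and the costimulators Icos and Tnfrsf4. The comparison summed UMIs per library and cell type over 4 libraries, since L-fuc day 21 held only 5 CD4 cells, and used edgeR's quasi-likelihood test with the library as a block. Of 6874 genes tested, 17 were higher (0.247%) and 27 lower (0.393%) at an adjusted p under 0.05, and 604 had an unadjusted p under 0.05. The genes of the rule were left out of these counts. With no block they fell to 0 higher and 3 lower. Of the libraries left out in turn, those of day 7 lowered the calls most, to 4 higher and 3 lower without control day 7 and to 2 and 6 without L-fuc day 7. Without control day 0 they numbered 30 and 102 and without control day 21 24 and 34, with 41 and 37 of the 44 calls shared. Only 6 and 7 of the 44 were shared without control day 7 and L-fuc day 7, and 9 without barcodes with more than 2 UMIs of other cells' markers. Of the 20 named genes, Cd40lg and Tbc1d4 stayed called under all 5 of these, while Ccl5 and Gzmb lost their call without either library of day 7. With 1 library per condition the p-values measure only the spread between these libraries.

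Among the genes that were higher, Ccl5 stood at 7746 CPM in CD8 and 4173 in CD4 T cells at control day 0, at 4208 and 911 at control day 7, at 7812 and 1753 at L-fuc day 7 and at 37570.1 and 1556 at control day 21. It was higher in CD8 T cells in all 4 libraries (log2 fold 2.40 ± 0.40 SE, adjusted p = 0.0163 by edgeR). Gzmb stood at 177 and 82.8, 84.9 and 29.0, 227 and 109, and 265 and 39.4 CPM in the same order (log2 fold 1.30 ± 0.21, adjusted p = 0.0153). Gzmb was higher in CD8 T cells in each of the 4 libraries. Ctla2a, which encodes a cysteine protease inhibitor, had a log2 fold of 2.14 ± 0.30 (adjusted p = 0.00639), and Cd7, a surface receptor of T and NK cells, of 1.60 ± 0.27 (adjusted p = 0.0171). Wdr95, Atp8b4, Pde3b, Ifitm10 and AW112010 completed the named genes with log2 folds between 0.76 and 2.95, each higher in all 4 libraries. Trgv2, a variable segment of the gamma receptor chain, was higher in 3 of 4 libraries (log2 fold 2.15 ± 0.37, adjusted p = 0.0171). Ctsw, a protease of killer cell granules, had a log2 fold of 1.54 ± 0.30 (adjusted p = 0.0353) and the NKG2D receptor gene Klrk1 of 1.31 ± 0.26 (adjusted p = 0.0388).

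Among the genes that were lower, Cd40lg, by which helper T cells license dendritic cells and B cells, stood at 5.77 CPM in CD8 and 95.7 in CD4 T cells at day 0, at 3.86 and 66.2 at control day 7, at 8.85 and 104 at L-fuc day 7, and at 0 and 335 at control day 21. It was lower in all 4 libraries (log2 fold -3.85 ± 0.30, adjusted p = 5.49e-05 by edgeR). Tnfsf8, the CD30 ligand, had a log2 fold of -2.29 ± 0.31 (adjusted p = 0.00603), and Icos, a costimulator of helper cells, of -1.53 ± 0.23 (adjusted p = 0.00779). Tnfrsf4 (OX40), another costimulator, had -1.97 ± 0.37 (adjusted p = 0.0308), and Cd247, the zeta chain of the receptor complex, -1.03 ± 0.18 (adjusted p = 0.0198). Stfa3 had 1 UMI in all CD8 T cells of the 4 libraries and 22.1, 74.5, 136 and 108 CPM in CD4 T cells. Tbc1d4, Ebi3, Tmem64, Tiam1, Rabgap1l, Tspan32 and the segment Trbv20 were the other named genes, with log2 folds between -3.02 and -1.28.

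By lists, 2 of 12 tested cytotoxic genes were higher (Gzmb and Ctsw) with a median log2 fold of 0.47, against -0.01 over all tested genes. Of 13 cytokine and chemokine genes only Ccl5 was called, and the median was -0.62. None of 15 inhibitory receptor and exhaustion genes, 14 CD8 lineage factors or 20 cell cycle genes was called in either direction, with medians of -0.52, -0.45 and 0.35. Of the naive and central memory genes, Cd7 and Ly6c2 were higher and none of the other 10 was called, and of 14 receptor response genes Icos and Tnfrsf4 were lower. Macrophage markers summed to 348 CPM in CD8 and 349.8 in CD4 T cells at day 0, 723 and 981 at control day 7, and 324 and 312 at L-fuc day 7, and no macrophage or tumor marker was called.

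**Figure D3:**
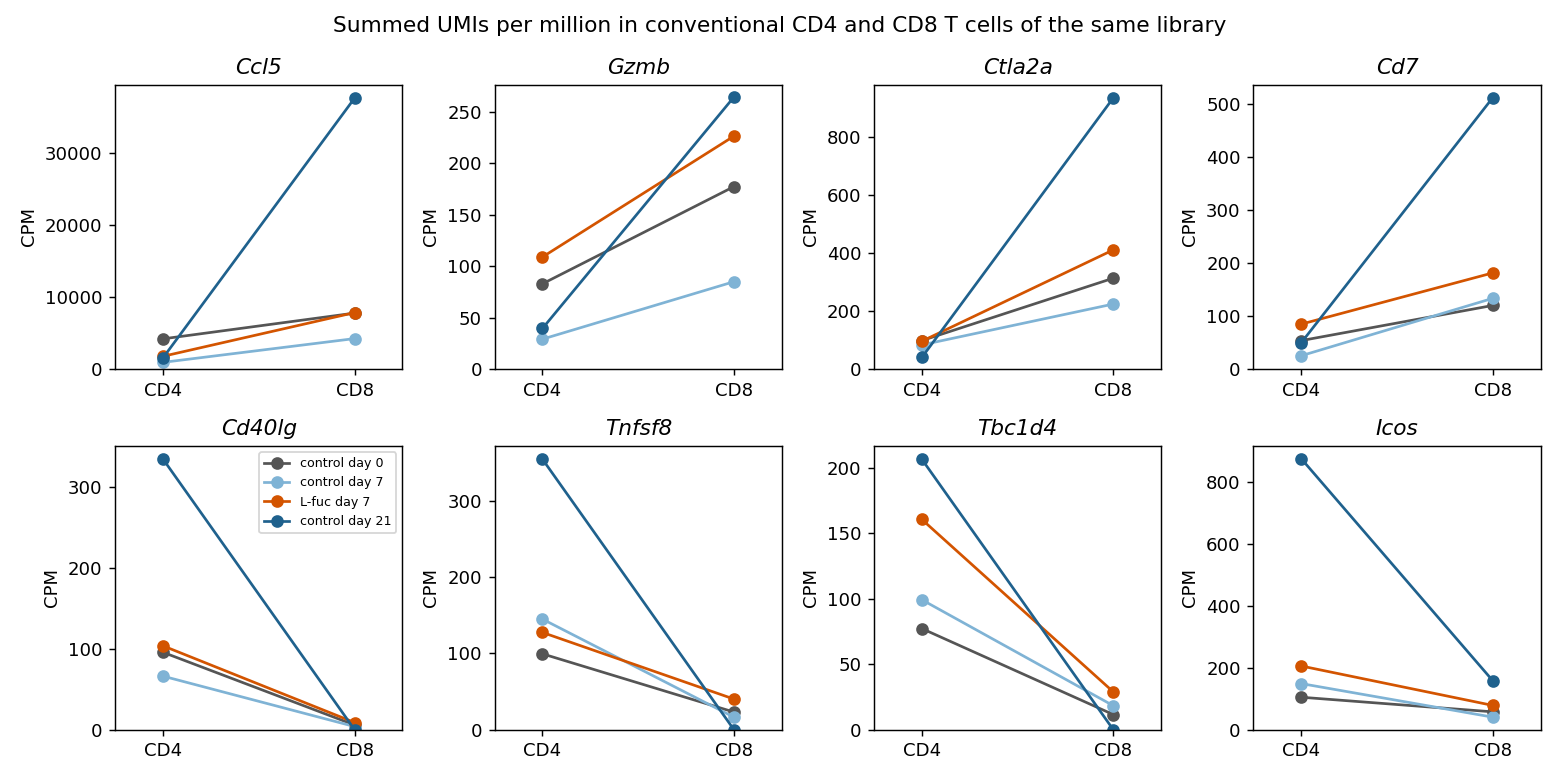
Level (y axes, CPM, linear scales that differ between panels) of 8 genes in conventional CD4 and CD8 T cells, with a line joining both cell types of 1 library. Ccl5, Gzmb, Ctla2a and Cd7 rise and Cd40lg, Tnfsf8, Tbc1d4 and Icos fall from CD4 to CD8 in each of the 4 libraries; control day 21 rests on 13 CD8 and 16 CD4 cells.

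Against NK cells, the other killer lymphocytes of the sort, CD8 T cells carried T cell genes, inhibitory receptors and Gzmk, and less Gzma, Prf1 and NK receptors. Of 8166 genes tested over 3 libraries, 162 were higher (1.98%) and 89 lower (1.09%) in CD8 T cells. The NK cells had been chosen by Ncr1 and Klrb1c and by the absence of CD3 UMIs, and those genes were left out. Differences in other T cell genes and NK receptors still follow in part from this choice, and no support for the cell labels is drawn from them. Without control day 0, which held only 13 NK cells, 431 genes were higher and 273 lower, and without L-fuc day 7 these fell to 81 and 38. Without the barcodes that held more than 2 UMIs of other cells' markers, 2 libraries remained, and 11 genes were higher and 9 lower.

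Pdcd1 stood at 384, 130.2 and 201 CPM in CD8 T cells of the 3 libraries and at 0, 1.90 and 1.17 CPM in NK cells (adjusted p = 6.63e-08 by edgeR). Ctla4 stood at 156, 57.9 and 93.8 CPM against 0, 1.90 and 5.25 CPM (adjusted p = 1.72e-06), and Lag3 at 231, 72.3 and 111 CPM against 0, 7.61 and 13.4 CPM (adjusted p = 6.2e-06). The levels of these 3 receptors did not overlap between the cell types in any library. In all, 9 of 16 inhibitory receptor and exhaustion genes were higher, Cd244a was lower, and the median log2 fold was 1.70 against 0.00 over all tested genes. The residency chemokine receptor Cxcr6 had a log2 fold of 3.93 ± 0.33 (adjusted p = 1.72e-06). Of the T cell genes outside the rule 11 of 20 were higher, among them Trac (4.78 ± 0.33), Bcl11b (3.73 ± 0.32) and Cd5, which had no UMI in NK cells. Genes at or near 0 in NK cells, such as Cd5 and Pdcd1, passed the filter on low counts through the CD8 T cells. Their small p-values are thus given as a description only. Trbv19, Trbv31 and Gstp3 were the other named genes that were higher, and Cma1, Klrb1a, Klrb1f, Atp1b1, S1pr5 and Adamts14 the others that were lower.

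The granule genes split between both cell types. Gzmk stood at 294, 217 and 307 CPM in CD8 T cells and at 49.4, 9.51 and 21.0 CPM in NK cells (log2 fold 3.94 ± 0.29, adjusted p = 5.31e-07 by edgeR). Gzma stood at 24.5, 157 and 632 CPM in CD8 T cells and at 2717, 2551 and 9816 CPM in NK cells (-4.57 ± 0.39, adjusted p = 1.85e-06). Prf1, the pore-forming perforin, stood at 83.7, 100.3 and 114 CPM against 329, 232 and 774 CPM. Each of these 3 genes kept its direction in all 3 libraries. The inhibitors Serpinb9 and Serpinb6b were also lower in CD8 T cells, and 7 of 12 NK receptor genes were lower (Klra7, Klra3, Klre1, Klrg1, Klrk1, Fcer1g and Tyrobp) with none higher. Of 13 cytokine and chemokine genes, Ifng, Ccl1, Csf1 and Tnfsf10 were higher in CD8 T cells. Red cell markers summed to 0, 379 and 3824 CPM in CD8 T cells and to 0, 1832 and 5819 CPM in NK cells.

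The receptor libraries gave a second readout of the CD8 T cells. Both chains were found in 81.8%, 56.1%, 57.0%, 61.5% and 75.0% of them, and more often in deeper cells at day 7, where the median depth with and without both chains was 3829 and 2266 UMIs for control and 5241 and 3151 for L-fuc. Of the cells with a clonotype, 36 of 91 (39.6%) at control day 0, 107 of 151 (70.9%) at control day 7 and 128 of 190 (67.4%) at L-fuc day 7 belonged to a clonotype of 2 or more barcodes. At day 21 this was 7 of 10 for control and 0 of 6 for L-fuc (upper Clopper-Pearson limit 45.9%). The share was lower at day 0 (29.5 to 50.4%) than in either library of day 7 (62.9 to 78.0% and 60.2 to 74.0%), where the intervals overlapped each other. The receptor libraries held 386, 949, 1084, 56 and 22 barcodes, which were not equalised for these shares, and cells of 1 clonotype are not independent counts. In conventional CD4 T cells it was 15.2%, 36.8%, 53.8%, 42.9% and 0%. Of the clonotypes with 2 or more gated cells, 60 held CD8 T cells and no CD4 or regulatory T cells, 34 held only the latter, and 7 held both.

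The most frequent CD8 clonotypes are printed by the nucleotides of their CDR3, the loop that meets the peptide, because they show which receptors led in the libraries with enough cells. The capitals mark the conserved codons at either end of the loop, and all sequences are those deposited, written 5′ to 3′. Clonotype1 of control day 0 and clonotype1 of control day 7 each held 2 alpha chains, of which the one with more contigs is printed. Clonotype1 and clonotype3 of control day 0 had 8 and 3 CD8 T cells. Clonotype1 and clonotype5 of control day 7 had 18 and 15, and clonotype1 and clonotype5 of L-fuc day 7 had 11 and 9. At control day 21, clonotype1, clonotype8 and clonotype9 had 2 each. Clonotype1 was the largest of that library with 7 barcodes, but it held a beta chain alone, so the other two are printed. No clonotype of L-fuc day 21 had more than 1.

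control day 0 clonotype1, TRAV12-3 to TRAJ6: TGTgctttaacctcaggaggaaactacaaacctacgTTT
control day 0 clonotype1, TRBV3 to TRBJ2-1: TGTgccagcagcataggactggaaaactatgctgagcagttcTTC
control day 0 clonotype3, TRAV6-1 to TRAJ13: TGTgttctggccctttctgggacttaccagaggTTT
control day 0 clonotype3, TRBV10 to TRBJ1-3: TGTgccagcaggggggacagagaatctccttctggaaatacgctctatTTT
control day 7 clonotype1, TRAV13D-3 to TRAJ47: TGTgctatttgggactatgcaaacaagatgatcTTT
control day 7 clonotype1, TRBV10 to TRBJ2-4: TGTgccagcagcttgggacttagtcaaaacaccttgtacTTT
control day 7 clonotype5, TRAV2 to TRAJ21: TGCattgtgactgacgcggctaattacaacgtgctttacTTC
control day 7 clonotype5, TRBV31 to TRBJ2-3: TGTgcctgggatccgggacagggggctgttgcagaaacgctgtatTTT
L-fuc day 7 clonotype1, TRAV6D-6 to TRAJ31: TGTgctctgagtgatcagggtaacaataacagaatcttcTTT
L-fuc day 7 clonotype1, TRBV19 to TRBJ2-7: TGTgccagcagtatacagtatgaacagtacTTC
L-fuc day 7 clonotype5, TRAV7N-5 to TRAJ39: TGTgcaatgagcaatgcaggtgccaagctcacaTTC
L-fuc day 7 clonotype5, TRBV30 to TRBJ2-1: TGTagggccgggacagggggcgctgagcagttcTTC
control day 21 clonotype8, TRAV6D-6 to TRAJ52: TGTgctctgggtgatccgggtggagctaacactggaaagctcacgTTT
control day 21 clonotype8, TRBV13-3 to TRBJ1-1: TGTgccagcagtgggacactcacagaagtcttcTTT
control day 21 clonotype9, TRAV14N-1 to TRAJ45: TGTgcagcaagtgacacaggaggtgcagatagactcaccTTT
control day 21 clonotype9, TRBV5 to TRBJ2-4: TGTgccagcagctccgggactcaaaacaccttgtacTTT

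No TRB nucleotide sequence of a CD8 T cell was found in more than 1 library. Of the TRA nucleotide sequences, 1 was shared by control day 0 and L-fuc day 7, 2 by control day 0 and L-fuc day 21, 1 by both libraries of day 7 and 2 by both L-fuc libraries. Control day 0 and L-fuc day 7 also shared 2 TRB amino acid sequences. The beta loops had a median of 14 codons at day 0, control day 7 and L-fuc day 7 alike. TRBV19 was carried by 11 of 88 CD8 T cells with a beta chain at control day 0, 24 of 142 at control day 7 and 57 of 178 at L-fuc day 7, and by 8 of 68, 9 of 71 and 25 of 108 clonotypes. TRBV19 was thus more frequent at L-fuc than at control day 7 both by cells (32.0%) and by clonotypes (23.1%), as 1 library against 1 library. Other segments went the other way. TRBV10 was carried by 31 of 142 cells at control day 7 and 5 of 178 at L-fuc day 7. TRBV5 was carried by 10 of 71 and 1 of 108 clonotypes. No interval was computed for the shares of segments. The clonotypes reappear in the gene counts: Trav2, used by clonotype5, had 58 UMIs in 18 cells at control day 7 and 1 UMI at L-fuc day 7, and Trbv3, used by clonotype1 of day 0, had 224 UMIs at day 0 and 0 at control day 7.

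The clonotypes also showed which cells the rule missed. The 60 clonotypes of CD8 T cells alone held 421 barcodes, of which 212 (50.4%) met the rule. Of the others, 147 exceeded the C1q limit, 24 lacked the CD3 UMIs, 23 had no CD8 UMI, 10 held Cd4 or Foxp3 and 5 failed the limits on genes or mitochondrial UMIs. The part found by the rule was 79.5% at control day 0, 36.6% at control day 7 and 58.3% at L-fuc day 7. For clonotype1 of control day 7 it was 18 of 60 barcodes, with 28 over the C1q limit. Since a clonotype entered this count only with 2 or more cells that met the rule, the part found depends on how large the clonotypes were, and no difference between libraries is drawn from it. The shares of quality barcodes were not corrected for missed cells.

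Compared with CD8 T cells whose receptor was seen once, expanded cells had lower levels of 7 of 12 naive and central memory genes and higher levels of Pdcd1 and of 3 of 18 glycolysis genes. Of 4991 genes tested over 3 libraries by edgeR, 12 were higher (0.24%) and 34 lower (0.681%) in expanded cells. Without control day 0 these were 27 and 61, without control day 7 47 and 76, and without L-fuc day 7 47 and 58, and 41, 41 and 38 of the 46 calls remained. Receptor segment genes were left out. With each cell thinned to 1000 UMIs only 1 gene was called in each direction, and without the library as a block none was (257 genes at an unadjusted p under 0.05).

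The naive program was lower. Klf2, the factor that keeps naive T cells circulating, stood at 133 CPM in expanded and 616 in single cells at day 0, at 67.4 and 167 at control day 7, and at 82.6 and 279.9 at L-fuc day 7 (log2 fold -1.91 ± 0.22, adjusted p = 0.00296 by edgeR). Il7r, the receptor for the survival cytokine IL-7, stood at 38.0 and 134, 46.8 and 176, and 78.1 and 222 CPM (-1.79 ± 0.22, adjusted p = 0.00296). Both genes were lower in expanded cells of all 3 libraries. In all, 7 of 12 naive and central memory genes were lower, among them Klf2, Nsg2, Tcf7, Il7r, Ly6c2 and Satb1, none was higher, and the median log2 fold was -1.85 against -0.01 over all tested genes. Id3, another factor of memory precursors, was lower (-2.15 ± 0.30, adjusted p = 0.00561), as were Cd69, Myc and Zfp36.

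Higher genes included Pdcd1, which stood at 776 CPM in expanded and 159.9 in single cells at day 0, at 155 and 110.1 at control day 7, and at 257 and 117 at L-fuc day 7 (1.26 ± 0.25, adjusted p = 0.0376 by edgeR). Tnfrsf9 (4-1BB), a costimulator of activated CD8 T cells, had a log2 fold of 1.84 ± 0.34 (adjusted p = 0.0258). The metallothionein Mt1 stood at 159.7 and 61.0, 1265 and 401, and 841 and 270.2 CPM (1.49 ± 0.19, adjusted p = 0.00296), and Mt2 moved with it (1.57 ± 0.26). Mt1 differed more between day 0 and day 7 than between expanded and single cells. The glycolysis genes Pgk1, Tpi1 and Pgam1 were higher by 0.95 ± 0.17, 0.91 ± 0.17 and 0.89 ± 0.19, and none of the other 15 tested genes of that list was called. The histones Hist1h2ae and Hist1h2ap, Rgs16 and the replication gene Pclaf were the other named genes, and Pclaf was the only one of 19 cell cycle genes called, with a list median of 0.83. None of 12 cytotoxic genes or 12 cytokine and chemokine genes was called, with medians of 0.41 and -0.08.

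Some genes of myeloid and B cells were lower in expanded cells too. Of the marker lists, 1 of 5 tested macrophage, 2 of 4 monocyte, 1 of 5 dendritic cell and 1 of 3 B cell genes were called lower. None of them was called higher. Lyz2 stood at 7.61 CPM in expanded and 276 in single cells at day 0, 56.2 and 176 at control day 7 and 44.1 and 282 at L-fuc day 7 (-2.74 ± 0.37, adjusted p = 0.00423 by edgeR), and Ctsh, Tgfbi, Ifi30, Plac8, Ighm and Cd74 were lower as well. The macrophage markers summed to 72.2 and 506, 563 and 978, and 275 and 482 CPM, and their part in the list results was not tested.

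**Figure D4:**
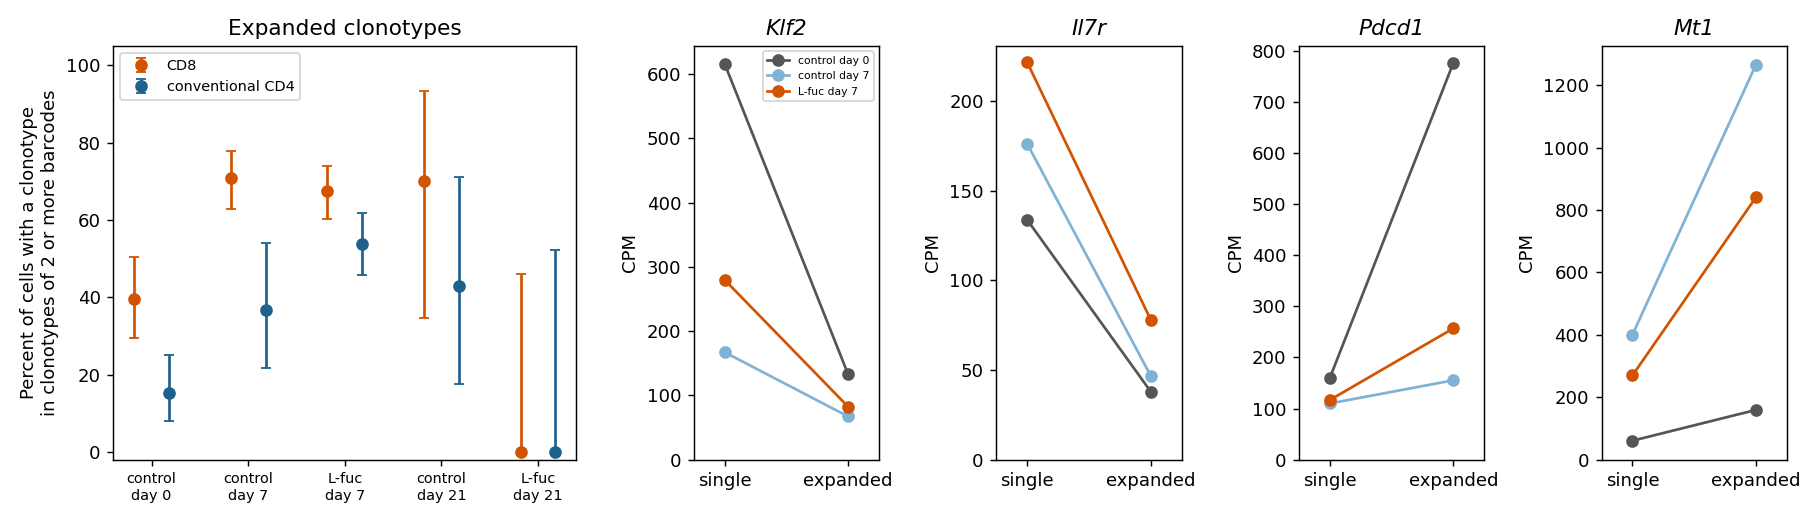
Left, percent of cells with a clonotype that belonged to a clonotype of 2 or more barcodes (y axis) for CD8 and conventional CD4 T cells of each library, with 95% Clopper-Pearson intervals. Right, level (CPM) of Klf2, Il7r, Pdcd1 and Mt1 in single and expanded CD8 T cells of 3 libraries, where Klf2 and Il7r were lower and Pdcd1 and Mt1 higher in expanded cells of each library.

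At day 7, CD8 T cells of the L-fuc library held relatively more UMIs of T cell, effector and interferon-stimulated genes and fewer of the cell cycle than those of the control library, with single genes mostly within 2-fold. Each difference compares 1 library with another. Markers of gamma-delta T cells differed too, with 30.9 CPM at control and 106 CPM at L-fuc day 7 and Tcrg-C2, Tcrg-C4 and Trdc past 2-fold higher, and their part in these differences was not tested. Of 9420 genes with at least 20 UMIs in the pair, 200 were at least 2-fold higher (2.12%) and 634 at least 2-fold lower (6.73%), and the median log2 ratio was -0.18. Of the 634 lower genes, 134 were at least as abundant in the CD8 T cells as outside the T cell gate, against 130 of the 200 higher genes and 4486 of all 9420. The 20 T cell genes outside the rule were themselves 0.49 higher on the log2 scale in sum (0.43 to 0.56), with none past 2-fold, so that a gene needs to exceed this value to have moved more than the T cell genes did. Scaled to them, 67 genes were at least 2-fold higher and 2307 lower.

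Cytotoxic effector genes were higher by 0.73 in sum (0.67 to 0.79), and 3 of 12 were past 2-fold. Gzmb stood at 84.9 CPM at control day 7 and 227 at L-fuc day 7 (log2 ratio 1.40, interval 1.08 to 1.77), Gzma at 157 and 632 (1.999, 1.77 to 2.25), and Serpinb9 was the third. Outside the T cell gate this list was higher at L-fuc day 7 as well, with 803 and 1899 CPM. Nkg7, a granule protein, stood at 1377 and 2096 CPM (0.61), and Prf1 at 100.3 and 114 (0.18). Scaled to the T cell genes these became 0.91 for Gzmb, 1.51 for Gzma, 0.11 for Nkg7 and -0.31 for Prf1, so only the granzymes A and B of these 4 remained clearly above the T cell genes. NK cells, which held 2551 and 9816 CPM of Gzma, numbered 126 and 356 in the same libraries, and NK markers summed to 285 and 785 CPM in the CD8 T cells. Of 12 NK receptor genes 4 were past 2-fold higher (Cd160, Klre1, Klrc2 and Klra3), with a median of 0.76 and 0.22 in sum. In cells with a receptor chain Gzma was at 189 and 636 CPM.

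Cytokines and chemokines were higher by 0.79 in sum (0.75 to 0.84), led by Ccl5 with 4208 and 7812 CPM (0.89, 0.84 to 0.94). Tnf was past 2-fold with 28.9 and 78.5 CPM, and Ccl1, a chemokine for CCR8, was lower with 107 and 40.1 CPM (-1.41, -1.87 to -0.97). Ifng, the main effector cytokine of CD8 T cells, stood at 135 and 187 CPM (0.46, 0.18 to 0.77), which is close to the T cell genes. Outside the T cell gate the cytokine and chemokine list summed to 995 and 2563 CPM, so that it was higher at L-fuc day 7 there as well.

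Interferon-stimulated genes were higher by 0.60 in sum, 24 of 25 tested lay above 0, and Isg15, Oasl1, Usp18, Rsad2, Ly6a and Ifit1 were past 2-fold. Isg15 stood at 60.8 CPM at control day 7 and 126 at L-fuc day 7, Ifit1 at 10.6 and 34.2 and Ly6a at 90.7 and 191. The list median was 0.81, or 0.31 after scaling to the T cell genes. In barcodes outside the T cell gate this list was also higher at L-fuc day 7, with 1541 and 2494 CPM. The T cell receptor response genes were higher by 0.27 in sum, below the T cell genes, and of 15 only Nfkbid was past 2-fold higher and Egr3 lower. Cd69 of that list, an early activation gene, stood at 73.3 and 142 CPM (0.94, 0.57 to 1.34), and with cells thinned to 1000 UMIs it was seen in 5.24% (2.74 to 8.97) and 14.4% (10.5 to 19.2) of CD8 T cells, against 3.61% and 3.11% of macrophages. Ly6c2, a surface protein of memory and effector CD8 T cells, stood at 121 and 380.5 CPM (1.65, 1.38 to 1.95) and was seen in 6.99% (4.05 to 11.1) and 23.7% (18.8 to 29.2) of thinned cells, against 1.01% and 2.63% of macrophages. B cells, with median depths of 6180 and 11326 UMIs, held Ly6c2 in 9 of 26 (34.6%) and 10 of 20 cells when thinned, a larger share than in the CD8 T cells. B cell markers, led by Igkc, summed to 146 and 980.5 CPM in the CD8 T cells, but 1406 of the 1538 Igkc UMIs of L-fuc day 7 lay in 1 cell. Without the cell with the most UMIs of each gene the summed log2 ratio of the B cell markers was -0.022. Monocyte markers, a list that includes Ly6c2, summed to 462 and 753 CPM in the CD8 T cells (0.70). Plac8 and Ly6c2 of that list were past 2-fold higher and Fn1 lower. The part of monocyte RNA in the Ly6c2 values was not tested. For Cd69 and Ly6c2 the intervals of the shares in CD8 T cells did not overlap between both libraries.

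Inhibitory receptors and exhaustion genes were higher by 0.37 in sum (0.26 to 0.48), below the T cell genes, and 1 of 17 was past 2-fold (Cd160). Pdcd1 stood at 130.2 and 201 CPM (0.62), Ctla4 at 57.9 and 93.8 (0.68), Lag3 at 72.3 and 111 (0.61), Havcr2 at 58.8 and 56.0 (-0.08) and Tox at 101 and 119 (0.22). None of these 5 differed by 2-fold. Naive and central memory genes were higher by 0.60 in sum, but their median was 0.45, or -0.041 after scaling to the T cell genes, and Ly6c2 was the only 1 of 14 past 2-fold higher. Klf2 had 0.93, Il7r 0.70 and Tcf7 0.23, while Ccr7 was lower with 94.5 and 20.6 CPM (-2.17, -2.80 to -1.62). The 98 UMIs of Ccr7 at control day 7 lay in 11 cells, 1 of which held 42.9%.

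Cell cycle genes had a summed log2 ratio of -0.39 (-0.45 to -0.32) and glycolysis and hypoxia genes of -0.28, and single members of the fucose list had few UMIs. Mki67, a marker of dividing cells, stood at 218 and 113 CPM, Top2a at 231 and 143, and Cenpf at 133 and 61.9 CPM (-1.10, -1.48 to -0.73), the only one of 20 past 2-fold. With cells thinned, Mki67 was seen in 13.1% and 5.19% of CD8 T cells and in 10.4% and 5.33% of macrophages. Shares of this size were thus also found in macrophages. Tumor and macrophage markers in the CD8 T cells were lower in the same direction, with summed log2 ratios of -0.92 and -1.16, and outside the T cell gate the cell cycle list summed to 2963 and 2527 CPM. The part of this RNA in the cell cycle and glycolysis values was not tested. Ldha and Pgk1 of glycolysis stood at 970.2 and 723 CPM and at 628 and 507 CPM. The fucose list (genes that activate, transport, attach or remove fucose and the fucosylated proteins Selplg, Notch1 and Notch2) had a summed log2 ratio of 0.088 (-0.036 to 0.214), with Selplg as its most abundant gene. Of its 22 genes 15 could be compared, and their median was -0.46. Slc35c1, the GDP-fucose transporter, had 14 and 10 UMIs and Fpgt, which makes GDP-fucose from salvaged L-fuc, 15 and 11, both past 2-fold lower by CPM but with intervals that held 0. Pofut1 and Fut8, which attach fucose to Notch and to N-glycans, stood at 22.2 and 19.5 CPM and at 37.6 and 19.5 CPM.

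Of the 10 highest ratios of single genes, 6 came mostly from 1 cell each. A single cell of L-fuc day 7 held 223 of 229 UMIs of Il13, all 99 of Il5, 153 of 158 of Il2 and 146 of 187 of Areg, and it had 26 Cd3e, 3 Cd8a and 5 Gata3 UMIs and no receptor chain. Another held 1017 of 1036 UMIs of Igha and 1406 of 1538 of Igkc, with 44 Jchain and 4 Cd79a UMIs beside 2 receptor chains. The other genes among the highest 10 were spread over more cells, Hbb-bt and Alas2 of red cells over 77 and 26 and the segments Trav7-4 and Trbv14 over 25 and 11. Among the lowest were Trav2 and Trav13-1, the collagens Col1a1 and Col4a1, and Fxyd3, Fnbp1l, Slpi, Hmox1 and Ccl8.

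**Figure D5:**
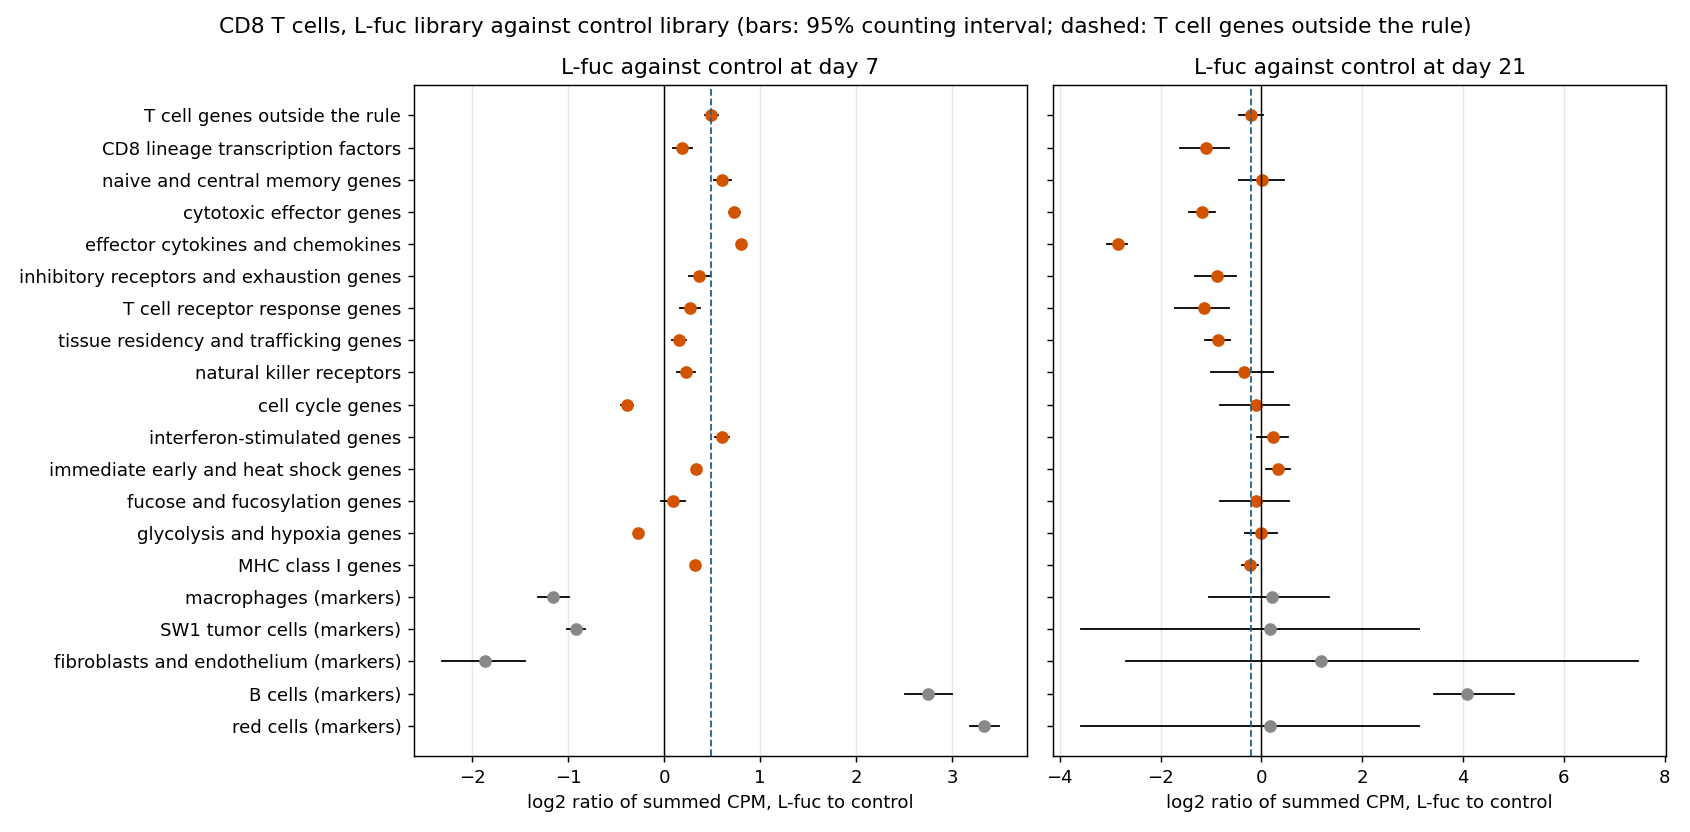
Log2 ratio of the summed CPM of each gene list (x axes) in CD8 T cells, L-fuc against control, at day 7 (left) and day 21 (right); bars are 95% exact intervals for counting error, grey points are markers of other cells and the dashed line is the ratio of the T cell genes outside the rule. At day 7 cytotoxic genes (0.73) and cytokines (0.79) lay right of that line (0.49) and cell cycle genes (-0.39) left of 0; at day 21 cytokines lay at -2.85, from 8 and 13 cells.

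At day 21 the comparison rested on 8 L-fuc and 13 control cells. Of 661 genes with at least 20 UMIs in the pair, 33 were at least 2-fold higher (4.99%) and 66 lower (9.98%), with a median of -0.03, and the T cell genes outside the rule differed by -0.20. Ccl5 had 2130 UMIs in 12 of 13 control cells and 117 in 5 of 8 L-fuc cells (log2 ratio -3.59). Nr4a2, a factor induced by receptor signals, had 88 and 1 UMIs, with 51.1% of the former in 1 cell, and Rgs1, Ccl4, Gzmk, Bhlhe40, Ctla2a, Sh2d2a, Ucp2 and Trgv2 were the others with the lowest ratios. The summed log2 ratio was -1.18 (-1.45 to -0.92) for cytotoxic genes, -0.89 for inhibitory receptors and exhaustion genes and 0.02 for naive genes. The highest ratios, of Ighm, Ighv14-4 and Iglv2, came from 1 L-fuc cell of 1703 UMIs that held 160 of Ighm and 1 each of Cd3e and Cd8a, and Lars2, Jun, Itgb1, Tmsb10, Rpl22l1, Rps20 and Rps29 followed. Without the cell with the most UMIs of each gene 3 genes were higher and 68 lower.

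Between control day 0 and control day 7, naive genes and T cell genes were lower and cell cycle genes higher at day 7, together with a large entry of tumor RNA. Of 8110 genes, 1821 were at least 2-fold higher (22.5%) and 398 lower (4.91%) at day 7, with a median of 0.29, and 445 of the higher and 290 of the lower genes were at least as abundant in the CD8 T cells as outside the T cell gate, against 4101 of all 8110. The 10 highest were Sparc, Tm4sf1, Apod, Hbb-bs, Ccnd1, Serpinh1, Mgp, Ecrg4, Col5a2 and Pdgfa. Sparc, a matrix gene of the tumor cells, had 1188 UMIs in 177 cells at day 7 and 0 at day 0, which allows up to 4.33 CPM. The T cell genes outside the rule had a summed log2 ratio of -0.82. Naive and central memory genes were lower still, with 8 of 14 past 2-fold and a median of -1.27, or -0.45 after scaling to the T cell genes. Outside the T cell gate this list was lower at day 7 too, with 701 and 308 CPM. Klf2 stood at 433 CPM at day 0 and 88.7 at control day 7, Ccr7 at 320.2 and 94.5 and S1pr1 at 59.1 and 22.2. Among the 10 lowest genes, Cd79a, Cd79b and Igkv10-96 belong to B cells, Chil3, Cxcl3, Ccl24, Ccl6 and Ccl2 to myeloid cells, and Trbv3 to the receptor. Cell cycle genes had 8 of 20 past 2-fold higher, with Mki67 at 59.1 and 218 CPM and Cenpf at 4.33 and 133. The list had a summed log2 ratio of 0.50 (0.42 to 0.59). Its median was 0.40, against 0.29 over all tested genes, and 12 of 20 lay above 0. In barcodes outside the T cell gate Mki67 stood at 77.1 and 141 CPM, while the whole list summed to 2941 and 2963 CPM.

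Between control day 7 and control day 21, inhibitory receptors and Ccl5 were higher and cell cycle genes lower in the 13 cells of day 21. Of 6892 genes, 1527 were at least 2-fold higher (22.2%) and 803 lower (11.7%), with a median of 0.26, and 554 of the higher genes had 50% or more of their day 21 UMIs in 1 cell. Without the cell with the most UMIs of each gene the balance turned, with 664 higher and 1335 lower. The T cell genes outside the rule were higher by 1.46 in sum. Scaled to them, only 57 genes were past 2-fold higher, and 3978 were lower. Of 12 inhibitory receptor and exhaustion genes 10 were past 2-fold higher, with a median of 2.20, or 0.74 after this scaling. Of 14 residency and trafficking genes 4 were past 2-fold higher, among them Rgs1, Cxcr6 and Itgb7, and Ccr7 was lower, with a median of 0.62, or -0.84 after it. Ctla4 stood at 57.9 CPM at day 7 and 599.7 at day 21, Rgs1, a brake on chemokine signals, at 475 and 5856, Ccl5 at 4208 and 37570.1, and Fasl, the death ligand of killer cells, at 46.3 and 353. Nr4a2, Ccl4, Trgv2, Gm11808, Tent5c and Glrx were the others among the 10 highest. Cell cycle genes had 13 of 20 past 2-fold lower, with a median of -1.51. Only 10 of the 20 had a UMI at day 21, where 0 counts allow up to 52.9 CPM. With a pseudocount of 5 UMIs the median turned positive. The 10 lowest were the genes Tm4sf1, Cd63, Lmna, Dag1, Stmn1, Apod, Sparc, Cald1 and Mt1 and the myeloid gene Fcer1g, while tumor markers summed to 1774 CPM at day 7 and 52.9 at day 21. The comparisons share the control day 7 library, so their values are not independent of each other.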

How the data were processed

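Gene counts and receptor contigs were deposited for the same 5 pools. According to the authors and the processing notes, Cell Ranger (3.0 in the notes, 7.1.0 in the matrix header) aligned reads to mm10 and wrote the deposited UMI count per gene and barcode, without normalization, and clonotype tables with a count and a fraction of receptor barcodes. Library totals were 14439185, 119047810, 88986101, 21727157 and 16589803 UMIs. CD8 T cells, chosen on measured genes, were summed per library. Members, lists and tests were chosen with earlier results of these data known. Libraries were compared by CPM, log2 ratios with 1 UMI added and exact conditional 95% intervals, which cover counting error only. The named genes are the 10 highest and 10 lowest ratios with at least 50 UMIs, the 10 called genes per direction with the smallest p in a fit, and list members; Gata3, Cd3e, Cd8a, Cd79a and Jchain in single cells, and Zfp36, Ldha and other list members beyond the rule's number, were chosen after their values were seen. Fits used edgeR 4.0.16 (TMM, filterByExpr, Benjamini-Hochberg adjustment at 0.05) in R 4.3.3, limma 3.58.1 and DESeq2 1.42.0 as the alternative tool, and were tested on simulated data. Python 3.11.15, numpy 2.4.6, pandas 2.3.3 and scipy 1.17.1 did the rest. No doublet caller was run, and 31 of 424 CD8 T cells with a beta chain (7.31%) had more than 1. The labels disagree on dose, mice and the number of cells injected, and with the study's methods on the days before treatment. Some genes that the naming rule covers are not reported here.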

Additional observations from a re-analysis of the deposited data

Results flagged for a closer look

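Several gene lists differed between L-fuc and control in opposite directions at day 7 and day 21, each as 1 library against 1 library, and the difference between the days was not tested. In summed log2 ratios, CD8 lineage transcription factors had 0.19 at day 7 and -1.09 at day 21, cytotoxic effector genes 0.73 and -1.18, and effector cytokines and chemokines 0.79 and -2.85. Inhibitory receptors and exhaustion genes had 0.37 and -0.89, T cell receptor response genes 0.27 and -1.13, tissue residency and trafficking genes 0.16 and -0.86, and MHC class I genes 0.32 and -0.22. The T cell genes outside the rule had 0.49 and -0.20, so all of these lists but the cytotoxic genes and the cytokines lay below them at day 7. Scaled to the T cell genes, the medians of the other 5 lists were negative on both days. They were -0.34 and -1.26 for lineage factors, -0.20 and -0.96 for inhibitory receptors and -0.17 and -2.45 for receptor response. Residency genes had -0.11 and -0.33 and MHC class I genes -0.13 and -0.066. On that scale the medians of cytotoxic genes (0.20 and -1.03) and cytokines (0.14 and -1.16) still had opposite directions. The scaling lowers every gene at day 7 by 0.49, so signs that turn under it follow from the shift. The values of day 21 come from 8 L-fuc and 13 control cells, of which the largest held 31.2% and 13.2% of the UMIs.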

How the results depend on the processing

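Between conditions no paired analysis was possible because each had 1 library and no mouse was identified in more than 1 of them, while the fits between cells of the same libraries had the library as a block. Shares were judged by the interval of the main share, and counts of genes by a fixed ratio to the main count. Shares with a beta chain were judged by the interval of the share with both chains. Of 182 summary values under the alternatives 87 stayed within these limits, and 95 moved. Without barcodes with more than 2 UMIs of other cells' markers, CD8 T cells were 21.2%, 7.05%, 13.5%, 6.10% and 7.69% of quality barcodes. At control and L-fuc day 7 they were 0.793% and 1.97% with a beta chain required, and 1.92% and 3.24% with 1 CD3 UMI. With 200 genes they were 1.21% and 2.23%, and without the Cd4 limit 1.44% and 3.50%. A productive beta chain was found in 88.9% at day 0 and 65.4% at L-fuc day 7. Of the thinned genes 14 had a larger share at L-fuc than at control day 7, and 8 without those barcodes.

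For L-fuc against control at day 7 (200 higher, 634 lower), the counts were 70 and 73 without barcodes with other cells' markers, 112 and 352 thinned, 89 and 226 with 50 UMIs, 67 and 2307 scaled to T cell genes, 130 and 134 for genes at least as high as outside the T cell gate, and 85 higher with a pseudocount of 5. The scaling to T cell genes, the limit to genes at least as high as outside the gate and the removal of the cell with the most UMIs of each gene (top cell) were chosen after seeing the data. At day 21 (33 and 66) they were 10 and 6 thinned, 11 and 16 with 50 UMIs, 3 higher without the top cell, 48 and 47 scaled, and 19 and 28 lower without those barcodes and with a pseudocount of 5. For control day 7 against day 0 (1821 and 398) they were 589 higher without those barcodes, 424 and 202 thinned, 802 and 212 with 50 UMIs, 1202 higher with a pseudocount of 5, 4504 and 120 scaled, and 445 higher for genes at least as high as outside. For control day 21 against day 7 (1527 and 803) they were 74 and 29 without those barcodes, 1001 higher with a beta chain, 540 and 133 thinned, 546 higher with 50 UMIs, 4762 and 81 with a pseudocount of 5, 57 and 3978 scaled, 664 and 1335 without the top cell, and 33 lower for genes at least as high as outside.

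Against CD4 T cells (17 and 27 by edgeR) the counts were 115 and 211 with no filter, 0 and 3 with no block, 9 and 14 thinned, and 9 lower without those barcodes, with 2 to 30 higher and 3 to 102 lower when 1 library was left out. Against NK cells (162 and 89) they were 79 and 48 by DESeq2, 358 and 181 with no filter, 23 and 8 with no block, 11 and 9 without those barcodes, 83 higher thinned, and 81 to 431 and 38 to 273 without 1 library. For expanded clonotypes (12 and 34) they were 5 and 14 by DESeq2, 112 and 145 with no filter, 0 and 0 with no block (257 at an unadjusted p under 0.05), 1 and 1 thinned, 5 and 18 from 3 barcodes on, and 27 to 47 and 58 to 76 without 1 library. The expanded fit was not run without those barcodes, since 1 library was left. The causes were not tested.

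Of the named genes that kept 20 UMIs and the medians of lists other than markers of other cells, 12 values that were at least 2-fold in size turned direction. Besides these, Il5 at day 7 had no UMI left without its top cell, and the B cell marker median went from 1.14 to -0.38. At day 21, Rpl22l1 was at -0.050 without the top cell and Ccl4 at 0.0042 without those barcodes, and the medians were 0.072 for CD8 lineage factors without those barcodes, and 0.11 for naive genes and 0.10 for interferon-stimulated genes with 50 UMIs. For control day 21 against day 7, Uap1, Cox6a2, B4galt5 and Kdm2b were at 0.12, 0.29, 0.45 and 0.51 and the cell cycle median at 0.28 with a pseudocount of 5, Smc4 was at 0.33 thinned, and the cytotoxic median was -0.26 scaled. The scaling lowers every gene of that comparison by 1.46 and of L-fuc against control at day 7 by 0.49, so signs that turn under it follow from the shift. Smaller medians turned too, among them MHC class I (0.97 to -0.48), interferon-stimulated (0.93 to -0.53), CD8 lineage (0.84 to -0.61) and residency genes (0.62 to -0.84) at day 21, and inhibitory receptors (0.29 to -0.20) and MHC class I genes (0.36 to -0.13) at day 7. Depth limited day 21 most, where 0 UMIs allow up to 52.9 and 79.5 CPM.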
